A study of Mus musculus with 16 samples.

Results

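A set of 9 kidney development genes was followed here across tumors and normal tissues of reprogrammable mice: the nephron progenitor transcription factors and cofactors Six2, Eya1, Cited1, Sall1 and Osr1, the factors of forming nephrons Pax2, Pax8 and Lhx1, and the growth factor gene Gdnf. The genes were chosen by name, as developing kidney genes that also mark Wilms tumor, and make up 9 of the 19938 genes measured. Earlier results of these data were known when they were chosen. Each had exactly 1 probe set with a single gene symbol on the array, and that probe set was used.

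The groups were secondary kidney tumors, kidney tumors, normal kidney, liver tumors and normal liver with 3 arrays each, and ES cells with 1 array. Reprogrammable mice, in which reprogramming transgenes respond to doxycycline (Dox), received Dox from 4 weeks of age for 7 days, and the kidney tumors were analysed 7 days after its withdrawal. Normal kidney was of the same age, while the labels give neither an age nor a Dox course for the liver samples. Liver tumors were primary tumors of reprogrammable mice. Secondary kidney tumors had been transplanted into subcutaneous tissue of immunodeficient hosts. The ES cells had a 129xC57BL6 F1 background, and the tissues a 129xC57BL6 F1 or a mixed background of both strains. Tumors arose in chimeras, so ICR cells may be present in them. The labels do not say whether the 3 arrays of a group came from separate animals, so a p-value here reflects only how far these arrays varied, in part perhaps for technical reasons.

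During kidney development, cap mesenchyme cells renew themselves under Six2 and its partners and secrete Gdnf, which acts through Ret and its co-receptor Gfra1 on the ureteric bud and makes it branch. Wnt signals from the bud turn part of the cap into renal vesicles, where Pax8 and Lhx1 come on and the nephron epithelium forms. In the mouse the progenitors are used up soon after birth. Wilms tumor, a childhood kidney cancer, keeps cells that resemble this cap. The adult kidney retains Pax2 and Pax8 in tubule and collecting duct epithelium.

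Values are log2 intensities of the deposited array signal, without a detection call, so a dim gene cannot be told from background and its changes are compressed. Several arrays stood apart in ways that touch these genes. Normal liver arrays 1 and 2 carried kidney transcripts: Slc34a1, a proximal tubule phosphate transporter, measured 11.29, 9.54 and 7.75 in normal liver arrays 1 to 3, and Umod, a thick ascending limb protein, 9.40, 8.56 and 6.78. Adipocyte genes were high on normal liver array 1, normal kidney array 2 and secondary kidney tumor array 1, where Adipoq measured 10.38, 9.98 and 9.87. Muscle desmin (Des) measured 11.42 on secondary kidney tumor array 1, against 8.31 and 7.61 on the other secondary tumor arrays. Xist, the RNA of the inactive X chromosome, measured 10.84 and 10.19 on kidney tumor arrays 2 and 3 and 5.60 on array 1, against 5.65 to 5.86 in normal kidney, and 5.88, 10.45 and 11.35 on liver tumor arrays 1 to 3. The kidney tumors kept part of the tubule signal: the mean of 9 proximal tubule markers was 6.97 to 7.17 in secondary kidney tumors and 10.75 to 11.73 in kidney tumors, against 12.83 to 12.95 in normal kidney. All arrays are of bulk tissue, in which fewer cells of a type and less RNA per cell cannot be told apart.

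**Figure D1:**
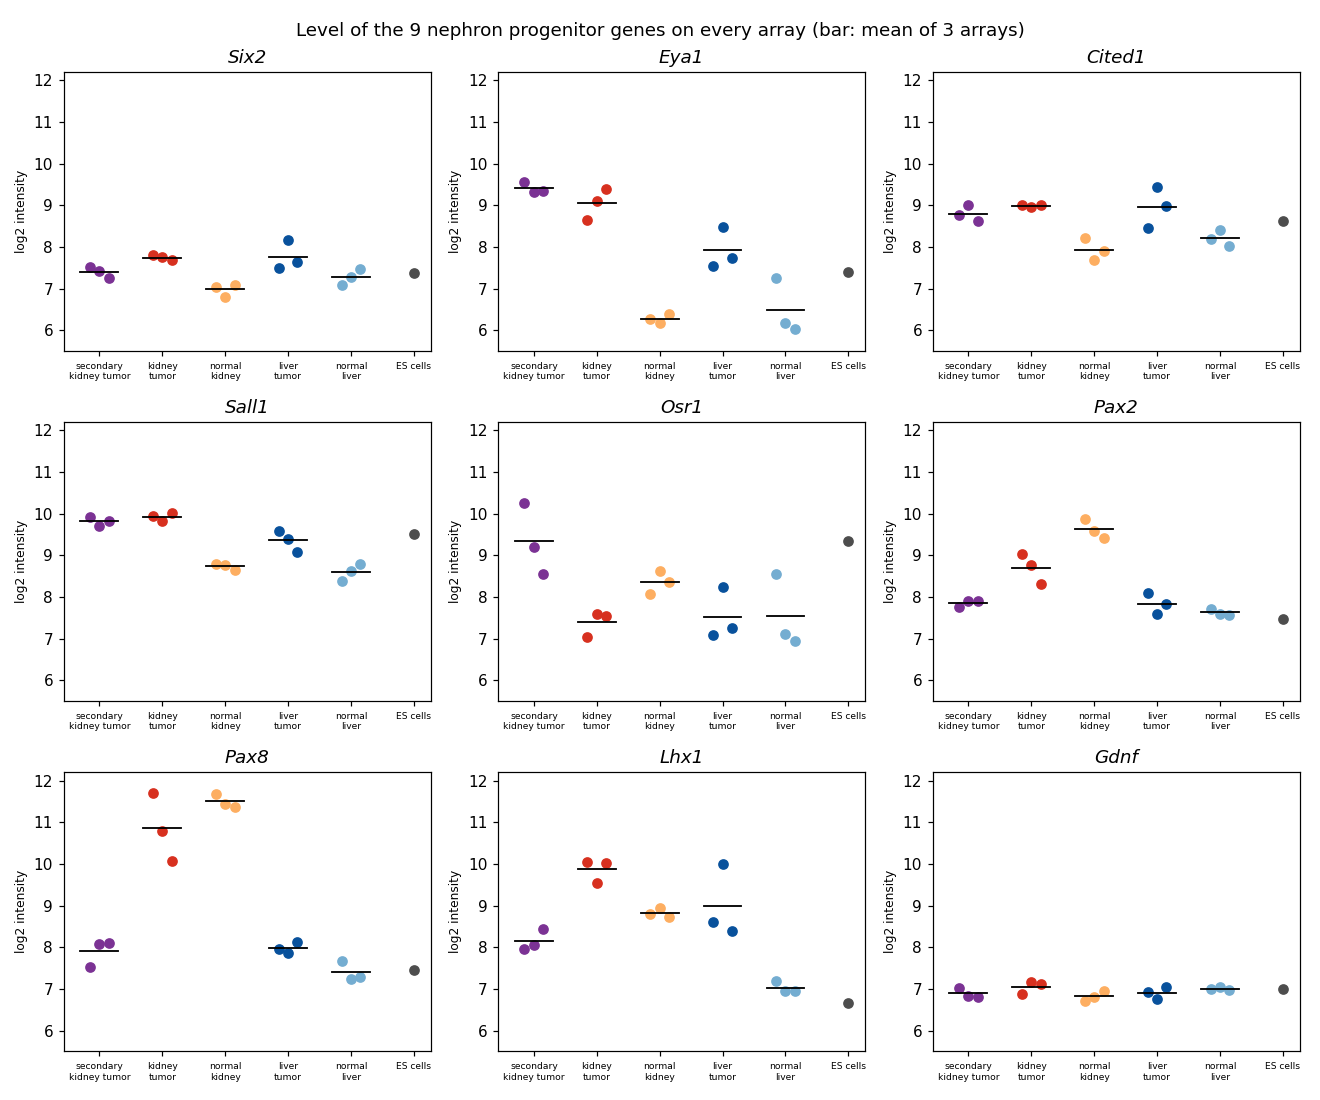
Level of each of the 9 genes on every array, in log2 intensity, with 1 point per array and a bar at the mean of each group. Eya1 lies above 8.6 on every primary and secondary kidney tumor array and below 6.5 in normal kidney, whereas Pax8 is above 10 in kidney tumors and normal kidney and below 8.2 in secondary kidney tumors.

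In kidney tumors, the cap mesenchyme genes Eya1, Sall1, Cited1 and Six2 and the renal vesicle gene Lhx1 stood above normal kidney, while Pax2 stood below it. Of the 9 genes, 5 rose, where 21.7% of all genes rose, and 1 fell, where 28.1% of all genes fell (limma, adjusted p under 0.05 over all genes). The median change of the 9 genes was 0.76 on the log2 scale, against -0.11 over all genes. The 3 genes that did not pass were Pax8, Osr1 and Gdnf. Of 19 further cap mesenchyme genes, described below, 3 rose and 4 fell in kidney tumors, with a median change of -0.12. Markers of other cells rose in the same comparison: 5 of 5 proliferation markers (median 4.11), 8 of 9 neural markers (median 1.87) and 5 of 6 myeloid markers (median 1.69). So did 5 of 8 pluripotency markers (median 2.82) and 7 of 7 mesendoderm markers (median 1.83), while 1 pluripotency and 1 myeloid marker fell. Their part in the rise of the 5 genes was not tested. In the secondary tumors, compared with the same normal kidney arrays, 4 of the 9 genes rose (background 29.9%) and 2 fell (background 38.7%), with a median change of 0.42 against -0.12 over all genes. Those that rose were Eya1, Sall1, Cited1 and Six2, and those that fell were Pax8 and Pax2. Of the 19 further cap mesenchyme genes 7 rose and 8 fell in secondary tumors, with a median change of -0.22. Both comparisons share their control arrays, so their values are given side by side without a measure of likeness.

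**Figure D2:**
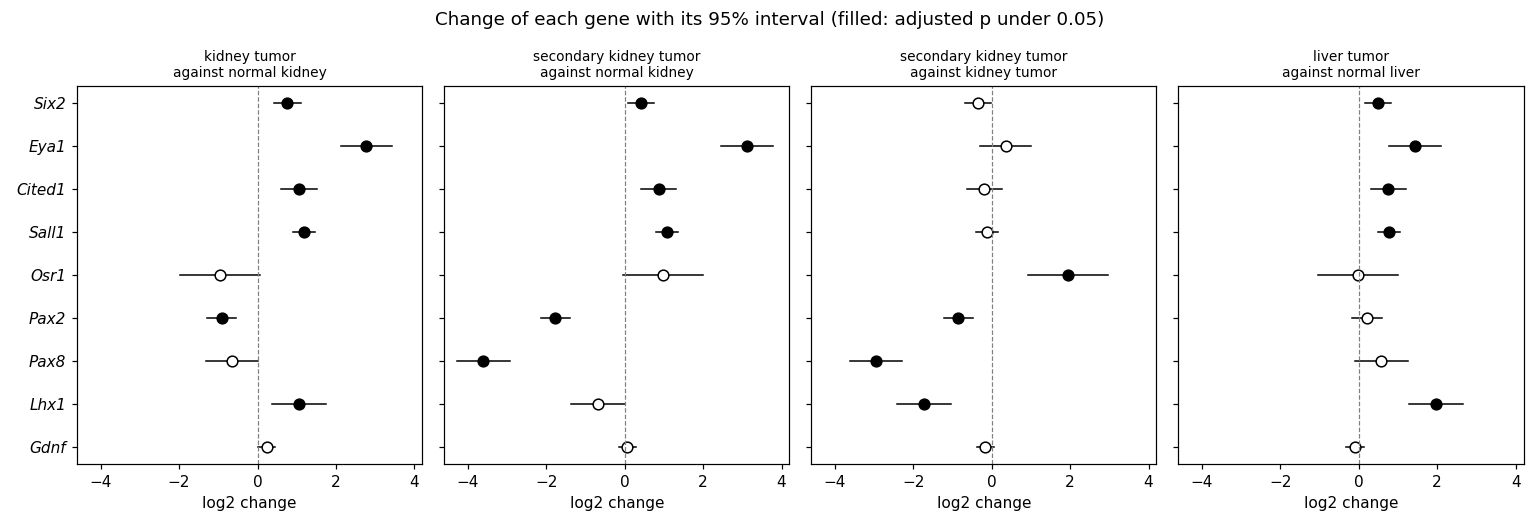
Log2 change of each gene with its 95% interval in 4 comparisons, where a filled point has an adjusted p under 0.05 in limma. Eya1, Cited1, Sall1 and Six2 lie right of 0 in the comparisons of kidney tumors, secondary kidney tumors and liver tumors with normal tissue, and Pax8 lies at -3.60 and -2.95 in the secondary tumor comparisons.

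Eya1, a phosphatase and cofactor of Six2 and its relatives without which the kidney does not form in mice, had the largest rise of the 9 genes in kidney tumors and in secondary tumors. It measured 9.55, 9.32 and 9.35 in secondary kidney tumors and 8.66, 9.11 and 9.40 in kidney tumors, against 6.27, 6.16 and 6.40 in normal kidney. Every tumor array lay at least 2 log2 units above every normal kidney array. The change was 2.77 ± 0.30 (SE) in kidney tumors, a 6.84-fold higher signal (limma adjusted p = 9.43e-06), and 3.13 ± 0.30 in secondary tumors, 8.74-fold (adjusted p = 1.31e-06). Secondary and primary kidney tumors overlapped, and their difference of 0.35 had a 95% interval of -0.31 to 1.01. Across the study the order of group means ran secondary kidney tumor, kidney tumor, liver tumor, ES cells at 7.40, normal liver and normal kidney, with overlap only between the first pair and the last pair.

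Six2, the transcription factor that keeps cap cells from differentiating, moved less. Six2 was dim, with a mean of 6.98 in normal kidney and 7.43 over all arrays, so its changes may be compressed. It measured 7.51, 7.43 and 7.25 in secondary kidney tumors and 7.80, 7.75 and 7.68 in kidney tumors, against 7.05, 6.80 and 7.10 in normal kidney. The 3 groups did not overlap. Six2 rose by 0.76 ± 0.16 in kidney tumors (1.69-fold, limma adjusted p = 0.00118) and by 0.42 ± 0.16 in secondary tumors (adjusted p = 0.03). The smaller of these was lost on quantile normalization, at 0.26 (adjusted p = 0.146), on centring the arrays, at 0.19 (adjusted p = 0.238), and without normal kidney array 2, secondary tumor array 1 or secondary tumor array 2 (adjusted p = 0.114, 0.0949 and 0.0712). The Six2 window upstream of its start, shown here because this gene names the progenitor state, holds a CCAAT box (CCAAT or, on the other strand, ATTGG) whose first base lies 87 bases before the start; in capitals, 5′ to 3′, RefSeq GRCm38.p6 chr17:85688255-85688354, minus strand:

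Six2: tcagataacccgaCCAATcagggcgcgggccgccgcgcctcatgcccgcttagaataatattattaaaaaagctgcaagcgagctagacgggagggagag

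Cited1, a transcriptional co-activator found in the most undifferentiated cap cells, measured 8.77, 8.99 and 8.63 in secondary kidney tumors and 9.004, 8.954 and 9.008 in kidney tumors, against 8.20, 7.69 and 7.91 in normal kidney. All tumor arrays were above all normal kidney arrays, and the kidney tumors differed among themselves by an SD of 0.03. Cited1 lies on the X chromosome, and the part of the Xist differences between arrays in its values was not tested. The change was 1.06 ± 0.21 in kidney tumors (2.08-fold, limma adjusted p = 0.00087) and 0.86 ± 0.21 in secondary tumors (adjusted p = 0.00253). Sall1, a zinc finger protein needed for the bud to enter the mesenchyme in mice, measured 9.91, 9.70 and 9.83 in secondary kidney tumors and 9.94, 9.83 and 10.02 in kidney tumors, against 8.80, 8.78 and 8.65 in normal kidney. Again no tumor array reached the normal range. Sall1 rose by 1.19 ± 0.13 in kidney tumors (2.28-fold, adjusted p = 9.36e-06) and by 1.07 ± 0.13 in secondary tumors (adjusted p = 1.01e-05). Neither gene passed the test between secondary and primary kidney tumors, where the 95% intervals ran from -0.64 to 0.26 for Cited1 and from -0.40 to 0.17 for Sall1.

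Osr1, the earliest of these factors in intermediate mesoderm, ran apart from the other progenitor genes. It measured 10.26, 9.19 and 8.55 in secondary kidney tumors and 7.05, 7.60 and 7.55 in kidney tumors, against 8.08, 8.64 and 8.37 in normal kidney. All 3 kidney tumors lay below normal kidney, while the secondary tumors spread widely (SD 0.86) and overlapped normal kidney. The kidney tumor change was -0.96 ± 0.47 (limma adjusted p = 0.107, 95% interval -1.99 to 0.06). It passed on centring the arrays, at -1.10 (adjusted p = 0.0442), and in a fit of those groups alone (adjusted p = 0.00673). Secondary tumors were 0.97 ± 0.47 above normal kidney (adjusted p = 0.0822), and 1.37 without secondary tumor array 3, the lowest (adjusted p = 0.0281). Without secondary tumor array 1, the highest, the difference was smaller and did not pass. Osr1 was the 1 gene of the 9 called higher in secondary than in primary kidney tumors, by 1.94 ± 0.47 (3.83-fold, adjusted p = 0.00598). Fibroblast markers moved with it: the mean of 7 such genes was 11.28 to 11.63 in secondary kidney tumors, against 8.67 to 9.84 in kidney tumors. Secondary tumor array 1, with the highest Osr1, was also the array with muscle and adipocyte transcripts, and normal kidney array 2 and normal liver array 1, which carried adipocyte transcripts, had the highest Osr1 of their groups. Their part in the result was not tested.

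Pax2 and Pax8, paired-box factors of kidney epithelium, both fell in secondary tumors. Pax8 measured 7.53, 8.08 and 8.09 in secondary kidney tumors and 11.70, 10.78 and 10.08 in kidney tumors, against 11.68, 11.44 and 11.38 in normal kidney. Kidney tumor array 1 lay at the top of the normal kidney values, and arrays 2 and 3 lay below them. The kidney tumor change was -0.65 ± 0.31 (limma adjusted p = 0.0976, 95% interval -1.31 to 0.02). The value turned on array 1: without it the change was -1.07 (adjusted p = 0.00163), and with it as the only kidney tumor 0.20 (adjusted p = 0.596). With all arrays kept, it passed on centring, at -0.78 (adjusted p = 0.0419), and with array quality weights, at -0.79 (adjusted p = 0.0051). In secondary tumors Pax8 fell by 3.60 ± 0.31 on the log2 scale against normal kidney (12.1-fold lower, adjusted p = 4.03e-07) and it fell by 2.95 ± 0.31 against kidney tumors (7.74-fold lower, adjusted p = 7.62e-06). The secondary tumor levels overlapped those of liver tumors, 7.85 to 8.13. The upstream window of Pax8 is shown because this gene separated primary from secondary tumors most. Its CCAAT starts 57 bases before the start site, in capitals, 5′ to 3′, RefSeq GRCm38.p6 chr2:24475600-24475699, minus strand:

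Pax8: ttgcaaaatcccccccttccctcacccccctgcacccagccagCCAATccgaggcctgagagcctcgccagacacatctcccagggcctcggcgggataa

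Pax2 measured 7.76, 7.90 and 7.92 in secondary kidney tumors and 9.03, 8.78 and 8.32 in kidney tumors, against 9.88, 9.58 and 9.42 in normal kidney. The groups formed 3 separate steps, lowest in the secondary tumors. Pax2 fell by 0.92 ± 0.17 in kidney tumors (1.89-fold lower, limma adjusted p = 0.000664) and fell by 1.76 ± 0.17 in secondary tumors (3.39-fold lower, adjusted p = 1.4e-06). With kidney tumor array 1 as the only kidney tumor it fell by 0.60 (adjusted p = 0.0409).

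The order of the kidney tumor arrays in Pax8 and Pax2 was that of the nephron markers. The mean of 11 distal tubule and collecting duct markers was 7.38, 7.12 and 7.05 in secondary kidney tumors and 10.52, 9.92 and 9.39 on kidney tumor arrays 1 to 3, against 11.63, 11.56 and 11.54 in normal kidney. In secondary kidney tumors the summed intensity of the list was 2522 to 3969, against 42174 to 46043 in normal kidney. In kidney tumors 7 of the 11 markers fell and none rose, where 28.1% of all genes fell. In secondary tumors all 11 fell against normal kidney, where 38.7% of all genes fell. The part of these cells in the Pax2 and Pax8 values was not tested. Over all 16 arrays Pax2 and Pax8 correlated at r = 0.95, a description of points that share tissue of origin and marker content.

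**Figure D3:**
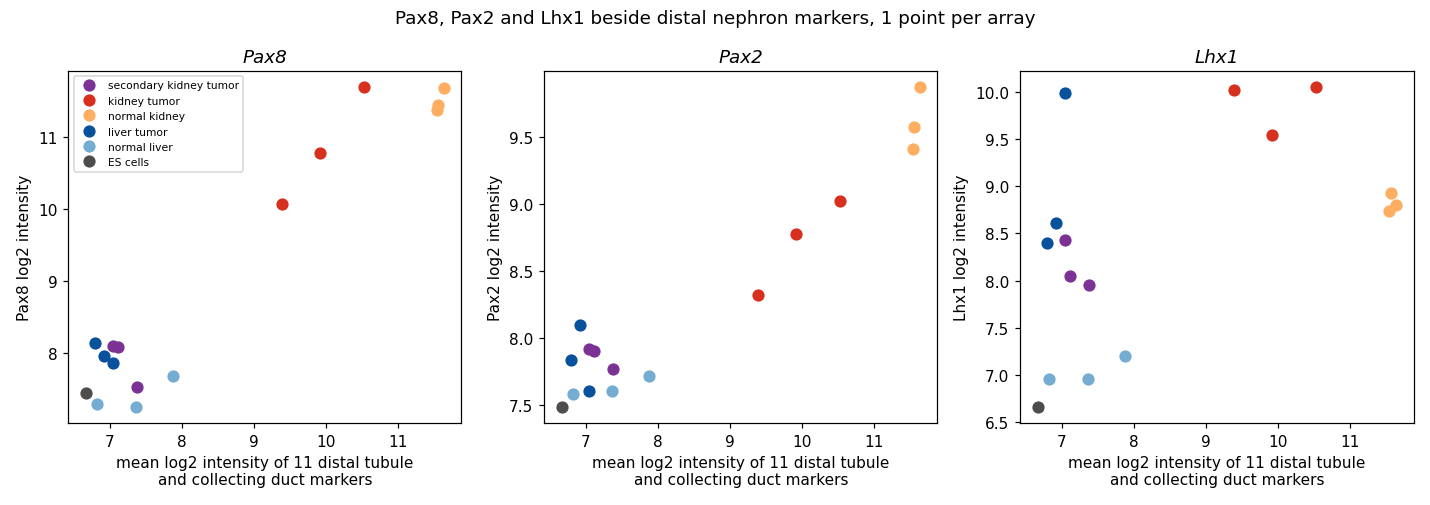
Log2 intensity of Pax8, Pax2 and Lhx1 against the mean log2 intensity of 11 distal tubule and collecting duct markers, with 1 point per array. The kidney tumor array with the highest marker mean (10.52) has the highest Pax8 and Pax2 and the one with the lowest (9.39) the lowest, whereas Lhx1 is above normal kidney on all 3 kidney tumor arrays.

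Lhx1, a LIM homeobox factor of the renal vesicle that also acts in the early embryo and in neurons, followed neither pattern. It measured 7.95, 8.05 and 8.43 in secondary kidney tumors and 10.05, 9.55 and 10.02 in kidney tumors, against 8.81, 8.93 and 8.73 in normal kidney. Kidney tumors were above normal kidney and secondary tumors below it, without overlap. Lhx1 rose by 1.05 ± 0.32 in kidney tumors (2.07-fold, limma adjusted p = 0.0142), and this call was lost with array 1 as the only kidney tumor, at 1.23 (adjusted p = 0.071). In secondary tumors the change against normal kidney was -0.68 ± 0.32 (adjusted p = 0.0713). It passed on quantile normalization, at -0.85 (adjusted p = 0.0266), on centring, at -0.91 (adjusted p = 0.0112), and in the fit of those groups alone (adjusted p = 0.00276). Against kidney tumors the secondary tumors fell by 1.73 ± 0.32 (3.32-fold lower, adjusted p = 0.000837).

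Mesendoderm markers of the early embryo were high in kidney tumors as well. All 7 measured markers rose there, where 21.7% of all genes rose. In secondary tumors against normal kidney 3 of the 7 rose and 1 fell, where 29.9% of all genes rose and 38.7% fell. The mean of the 7 markers was 7.81 to 7.98 in secondary tumors and 9.07 to 9.35 in kidney tumors, against 6.85 to 6.93 in normal kidney. Cer1, a secreted antagonist of the anterior mesendoderm, measured 11.79, 11.34 and 12.11 in kidney tumors, against 6.11, 6.28 and 5.79 in normal kidney. Eomes, a T-box factor of that tissue, measured 10.27, 10.11 and 10.45 in kidney tumors, against 6.50, 6.24 and 6.66 in normal kidney. The part of such cells in the Lhx1 value was not tested. The Lhx1 window, shown because this gene had the largest change of the 9 in liver tumors, holds the CCAAT box on the other strand, in capitals as ATTGG, with its first base 68 bases before the start, 5′ to 3′, RefSeq GRCm38.p6 chr11:84525535-84525634, minus strand:

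Lhx1: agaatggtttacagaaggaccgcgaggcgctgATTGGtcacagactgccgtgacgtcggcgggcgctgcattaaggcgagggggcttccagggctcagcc

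Promoter windows from 250 bases before to 50 after the start were found in RefSeq for 7 of the 9 genes, all but Eya1 and Osr1, and numbered 14 with alternative starts. CCAAT, searched on both strands, was in 6 of these 14 windows and in 37.4% of all 32851 windows. TATAAA, searched likewise, was in 3 of 14 and in 13.6% of all. The windows of Six2, Pax8 and Lhx1 held 37, 7 and 31 CG pairs, where the median of all windows was 7, and 12 of the 14 lay above that median. Motif matches describe letters in these windows and not binding sites.

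Gdnf, the ligand made by the cap mesenchyme, showed little movement on this array. It measured 7.03, 6.83 and 6.81 in secondary kidney tumors and 6.88, 7.16 and 7.12 in kidney tumors, against 6.71, 6.82 and 6.95 in normal kidney. The groups overlapped, and over all 16 arrays Gdnf ranged from 6.71 to 7.16. Its change was 0.23 ± 0.10 in kidney tumors (limma adjusted p = 0.0788, 95% interval 0.01 to 0.45) and 0.07 ± 0.10 in secondary tumors (adjusted p = 0.568, 95% interval -0.15 to 0.29). Without kidney tumor array 1 the kidney tumor change was 0.32 (adjusted p = 0.0222). With a mean of 6.94, Gdnf was also among the genes under 7.17, below which genes were left out in an alternative fit, so its level may be background.

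The Gdnf receptor Ret did move. It measured 9.24, 9.69 and 9.18 in secondary kidney tumors and 7.83, 8.32 and 8.30 in kidney tumors, against 7.07, 6.82 and 7.00 in normal kidney. The groups were separate, with the secondary tumors highest. Ret rose by 1.19 ± 0.24 in kidney tumors (limma adjusted p = 0.0012), by 2.41 ± 0.24 in secondary tumors against normal kidney (adjusted p = 1.85e-06) and by 1.22 ± 0.24 against kidney tumors (adjusted p = 0.0016). Of 9 measured neural markers 8 rose in kidney tumors and 8 in secondary tumors against normal kidney: their mean was 9.93 to 10.42 in secondary kidney tumors, 8.42 to 9.44 in kidney tumors and 7.04 to 7.16 in normal kidney, and Ret is also a receptor of neurons. The part of neural cells in the Ret value was not tested. The co-receptor Gfra1 measured 9.996, 10.08 and 10.34 in secondary kidney tumors and 8.64, 8.43 and 8.89 in kidney tumors, against 8.40, 9.68 and 9.82 in normal kidney. It was higher in secondary than in primary kidney tumors by 1.49 ± 0.39 (adjusted p = 0.0095), and passed neither test against normal kidney, with -0.65 ± 0.39 in kidney tumors (adjusted p = 0.183) and 0.84 ± 0.39 in secondary tumors (adjusted p = 0.073).

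Set against the primary kidney tumors, which also served in the comparison with normal kidney, the secondary tumors differed in Pax8, Pax2, Lhx1 and Osr1. The intervals of Eya1, Cited1 and Sall1 given above included 0. Of the 9 genes, 1 rose (Osr1; background 18.5%) and 3 fell (Pax8, Lhx1 and Pax2; background 17.4%), with a median change of -0.19 against -0.07 over all genes. Pax2 fell by 0.85 ± 0.17 (1.80-fold lower, limma adjusted p = 0.00186). Six2 was lower on all 3 secondary tumor arrays than on any kidney tumor array, by 0.35 ± 0.16 (adjusted p = 0.103), and passed in the fit of those groups alone (adjusted p = 0.0261), on quantile normalization (adjusted p = 0.0432) and on centring (adjusted p = 0.0263). Gdnf differed by -0.16 ± 0.10 (adjusted p = 0.236). All 9 proximal tubule markers and 9 of the 11 distal markers fell in the same comparison, and all 7 fibroblast markers rose.

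In the liver, an organ without nephron progenitors, the cap mesenchyme genes Eya1, Sall1, Cited1 and Six2 were also higher in tumors than in normal tissue. Of 19 further cap mesenchyme genes, described below, 5 rose and 3 fell in liver tumors, where 21.5% of all genes rose and 30.7% fell. Of the 9 genes 5 rose, against 21.5% of all genes, and none fell, against 30.7% of all genes (limma). The median change was 0.58, against -0.13 over all genes. Lhx1 measured 8.61, 9.99 and 8.39 in liver tumors, against 7.19, 6.95 and 6.96 in normal liver, and rose by 1.96 ± 0.32 (3.90-fold, adjusted p = 0.000261). Eya1 measured 7.55, 8.48 and 7.74 in liver tumors, against 7.25, 6.17 and 6.04 in normal liver, and rose by 1.44 ± 0.30 (2.70-fold, adjusted p = 0.0019). Liver tumor array 2 was highest for both, and for Six2, Cited1 and Osr1 among the liver tumors. That array also had the most mesendoderm signal, with a marker mean of 9.37 against 8.54 and 8.29 on liver tumor arrays 1 and 3. Cer1 was at 12.26 on it, and 4 of the 7 mesendoderm markers rose in liver tumors. Array 2 also had the highest fibroblast mean (10.73 against 9.37 and 10.33) and proliferation mean (11.36 against 10.75 and 10.95). Its neural, muscle and tubule means were highest too, while its pluripotency, hepatocyte, podocyte, myeloid and adipocyte means were not. The part of any of these cells in the values of array 2 was not tested.

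Sall1 measured 9.59, 9.40 and 9.08 in liver tumors, against 8.38, 8.63 and 8.79 in normal liver, and rose by 0.76 ± 0.13 (limma adjusted p = 0.000421). Cited1 measured 8.46, 9.44 and 8.98 in liver tumors, against 8.19, 8.41 and 8.03 in normal liver, and rose by 0.75 ± 0.21 (adjusted p = 0.00916). For Sall1 and Cited1 all liver tumors stood above all normal livers, and the call of Cited1 was lost in the fit of those groups alone (adjusted p = 0.0522). Six2 measured 7.50, 8.16 and 7.63 in liver tumors, against 7.10, 7.27 and 7.46 in normal liver, a rise of 0.49 ± 0.16 (adjusted p = 0.019). Its groups were separated by less than 0.1, and it was lost without normal liver array 1 (adjusted p = 0.0727), without liver tumor array 2 (adjusted p = 0.0758), on centring (adjusted p = 0.0855) and in the fit of those groups alone (adjusted p = 0.0854). Among the normal livers, array 3 held the least kidney RNA. It also had the highest mean of 5 proliferation markers, 10.16 against 9.15 and 9.21 on arrays 1 and 2. A comparison with normal liver array 3 alone was added after seeing the data. That comparison takes its spread from the other groups, so it is no replicated test. In it Lhx1 was higher by 2.04 (adjusted p = 0.00981), Eya1 by 1.89 (adjusted p = 0.00216), Cited1 by 0.93 (adjusted p = 0.0402) and Sall1 by 0.57 (adjusted p = 0.0288), while Six2 at 0.31 did not pass (adjusted p = 0.312).

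The remaining genes did not pass in the liver. Pax8 measured 7.96, 7.85 and 8.13 in liver tumors, against 7.68, 7.25 and 7.28 in normal liver. These arrays did not overlap, and the change of 0.58 ± 0.31 (limma adjusted p = 0.128) passed in the fit of those groups alone (adjusted p = 0.0223). Pax2 measured 8.09, 7.60 and 7.83 in liver tumors, against 7.72, 7.60 and 7.58 in normal liver, a change of 0.21 ± 0.17 (adjusted p = 0.309, 95% interval -0.16 to 0.59). Osr1 measured 7.08, 8.25 and 7.26 in liver tumors, against 8.55, 7.12 and 6.95 in normal liver, with a change of -0.01 ± 0.47 (adjusted p = 0.988). Normal liver array 1, with kidney and adipocyte transcripts, held the highest Osr1 and Eya1 of its group, and without it the Osr1 change was 0.50 (adjusted p = 0.362). Gdnf measured 6.93, 6.77 and 7.03 in liver tumors, against 6.99, 7.05 and 6.97 in normal liver (change -0.09 ± 0.10, adjusted p = 0.458).

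Whether the tumor effect differed between the organs was tested as the kidney tumor effect minus the liver tumor effect. The normal organs were unlike in proliferation: all 5 markers were lower in normal kidney than in normal liver (median -2.56). All 5 were higher in the difference of effects (median 2.75), and their part in the values below was not tested. Of the 9 genes none was higher in this difference, where 7.54% of all genes were, and 1 was lower, where 9.26% of all genes were. That gene was Pax2, with -1.13 ± 0.24 (limma adjusted p = 0.00712), made of the changes of -0.92 in the kidney and 0.21 in the liver. In normal liver Pax2 was at 7.58 to 7.72, near its lowest value over all arrays, 7.48. A fall in the liver may therefore not show. The 11 distal tubule and collecting duct markers had a median of -1.23 in the same difference, with 3 lower and none higher, and the 9 proximal tubule markers a median of -1.24, with 2 lower and none higher. Their part in the Pax2 value was not tested. The call was lost with kidney tumor array 1 as the only kidney tumor, at -0.81 (adjusted p = 0.0647). Eya1 followed at 1.34 ± 0.43 (adjusted p = 0.0503). It passed on centring, at 1.41 (adjusted p = 0.0228), and without kidney tumor array 1, at 1.54 (adjusted p = 0.0251), and without liver tumor array 2, at 1.62. The Eya1 value was smaller in other settings. It was 0.94 with kidney tumor array 1 as the only kidney tumor. With normal liver array 3 as the only normal liver it was 0.89. Pax8 differed by -1.23 ± 0.43 (adjusted p = 0.073), and without kidney tumor array 1 by -1.65 (adjusted p = 0.00216). With that array as the only kidney tumor, Pax8 differed by -0.38. For Six2, Cited1, Sall1, Lhx1, Osr1 and Gdnf adjusted p was between 0.14 and 0.539, and Sall1 passed without liver tumor array 1, at 0.54 (adjusted p = 0.0499).

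Between the tumors themselves, 4 of the 9 genes were higher in kidney tumors than in liver tumors, against 7.06% of all genes, and none was lower, against 5.9%. Pax8 was higher by 2.87 ± 0.31 (7.31-fold, limma adjusted p = 2.6e-05), Eya1 by 1.13 ± 0.30 (adjusted p = 0.0265), Pax2 by 0.87 ± 0.17 (adjusted p = 0.00444) and Sall1 by 0.57 ± 0.13 (adjusted p = 0.0105). In the fit of those groups alone Eya1, Pax2 and Sall1 no longer passed (adjusted p = 0.107, 0.0932 and 0.104). Eya1 also did not pass without kidney tumor array 2 or 3 or liver tumor array 1 or 3 (adjusted p = 0.0795, 0.105, 0.1 and 0.0926). Of the tubule markers, 8 of 9 proximal (median 3.95) and 10 of 11 distal (median 2.83) were also higher in kidney tumors, and their part in the Pax8 and Pax2 values was not tested. Six2 and Cited1 did not pass, with differences of -0.02 (95% interval -0.36 to 0.31) and 0.03 (95% interval -0.42 to 0.48). Lhx1 was higher by 0.87 ± 0.32 (adjusted p = 0.0959), and by 1.37 without liver tumor array 2 (adjusted p = 0.000202).

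The normal organs differed in Pax8, Pax2 and Lhx1. In normal kidney 3 of the 9 genes were higher than in normal liver, against 21.4% of all genes, and none was lower, against 16.4%. Pax8 was higher by 4.10 ± 0.31 (17.1-fold, limma adjusted p = 2.5e-07), Pax2 by 1.99 ± 0.17 (3.98-fold, adjusted p = 9.64e-07) and Lhx1 by 1.79 ± 0.32 (3.46-fold, adjusted p = 0.000526). Eya1, Six2, Cited1 and Sall1 overlapped between the normal organs or lay within 0.30 of each other in their means. Among the alternatives run, Osr1 passed only without normal liver array 1, at 1.33 (adjusted p = 0.0342). On the single ES cell array Pax8, Pax2 and Lhx1 measured 7.44, 7.48 and 6.66, while Osr1 measured 9.35, Sall1 9.50, Cited1 8.61 and Six2 7.38. ES cells had 1 array and were not tested.

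Among the 19 measured of 20 further cap mesenchyme genes, 3 rose and 4 fell in kidney tumors and 12 did not pass, with a median change of -0.12. Over all genes, 21.7% rose and 28.1% fell in kidney tumors, 29.9% rose and 38.7% fell in secondary tumors against normal kidney, and 21.5% rose and 30.7% fell in liver tumors. In secondary tumors 7 rose and 8 fell against normal kidney (median -0.22), and in liver tumors 5 rose and 3 fell (median 0.17), the same normal kidney arrays serving both kidney comparisons. Ncam1, a cell adhesion molecule of cap cells and of neurons, rose by 1.81 ± 0.34 in kidney tumors (limma adjusted p = 0.000679) and by 4.26 ± 0.34 in secondary tumors (adjusted p = 2.36e-07). Six4, a relative of Six2, rose by 1.06 ± 0.19 in kidney tumors (adjusted p = 0.000545) and by 1.65 ± 0.19 in liver tumors (adjusted p = 2.48e-05). Spock2, a matrix proteoglycan, rose by 1.05 ± 0.29 in kidney tumors and by 2.85 ± 0.29 in secondary tumors, and Tmem100, a membrane protein, by 3.22 ± 0.26 in secondary tumors. Crym, a thyroid hormone binding protein, fell by 1.33 ± 0.14 in kidney tumors, fell by 1.59 ± 0.14 in secondary tumors and fell by 1.14 ± 0.14 in liver tumors.

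Wt1, the Wilms tumor suppressor gene of progenitors and podocytes, fell. It measured 6.95, 6.92 and 7.16 in secondary kidney tumors and 7.94, 7.68 and 7.94 in kidney tumors, against 8.43, 8.75 and 8.59 in normal kidney. The groups did not overlap. Wt1 fell by 0.73 ± 0.21 in kidney tumors (limma adjusted p = 0.0122) and fell by 1.58 ± 0.21 in secondary tumors (adjusted p = 2.71e-05). Of the 4 measured podocyte markers 3 fell and 1 rose in each of these comparisons, where 28.1% and 38.7% of all genes fell. In liver tumors Wt1 rose by 0.61 ± 0.21 (adjusted p = 0.0305), though the liver tumor and normal liver arrays overlapped.

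Of the 11 genes of Gdnf reception and the bud's response, 6 rose and 1 fell in kidney tumors (median change 0.37), 3 rose and 1 fell in secondary tumors against normal kidney (median 0.29), and 6 rose and none fell in liver tumors (median 0.47), where 21.7%, 29.9% and 21.5% of all genes rose. Sox9, a factor of the bud tip and of many progenitors, rose by 2.28 ± 0.25 in kidney tumors (limma adjusted p = 9e-06) and by 3.26 ± 0.25 in secondary tumors (adjusted p = 1.45e-07). Etv4, an ETS factor downstream of Ret in the bud, rose by 0.94 ± 0.13 in kidney tumors (adjusted p = 7.47e-05), and its relative Etv5 by 1.38 ± 0.15 in liver tumors (adjusted p = 1.18e-05). In secondary tumors Etv4 was at 0.29 against normal kidney (adjusted p = 0.0673), and against kidney tumors Etv4, Etv5 and the Ret pathway inhibitor Spry1 were at -0.65, -0.59 and -0.68 (adjusted p = 0.00209, 0.00697 and 0.000241), all called lower. Ret itself was at 0.08 ± 0.24 in liver tumors (adjusted p = 0.789). Emx2, a homeobox factor of the bud, fell by 1.73 ± 0.21 in kidney tumors, fell by 3.06 ± 0.21 in secondary tumors and rose by 1.12 ± 0.21 in liver tumors (adjusted p = 0.000702).

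Of 16 measured genes of nephron induction and the early nephron, 6 rose and 4 fell in kidney tumors (median change -0.13), 7 rose and 7 fell in secondary tumors (median -0.16), and 7 rose and 3 fell in liver tumors (median 0.16), where 28.1%, 38.7% and 30.7% of all genes fell and 21.7%, 29.9% and 21.5% rose. Cdh6, a cadherin of the early proximal tubule, rose by 2.39 ± 0.27 in kidney tumors, by 3.03 ± 0.27 in secondary tumors and by 2.38 ± 0.27 in liver tumors (limma adjusted p = 1.09e-05, 5.36e-07 and 1.68e-05). Lef1, a mediator of Wnt signals, rose by 2.07 ± 0.12, 1.62 ± 0.12 and 1.76 ± 0.12 in the same order. Hnf4a, which drives proximal tubule and hepatocyte genes, averaged 7.45 in secondary kidney tumors and 11.18 in kidney tumors, against 12.88 in normal kidney. It fell by 1.70 ± 0.30 in kidney tumors (adjusted p = 0.000372) and fell by 5.43 ± 0.30 in secondary tumors (adjusted p = 8.96e-09). Wnt4, the signal of the vesicle itself, was higher in secondary than in primary kidney tumors by 1.10 ± 0.11 (adjusted p = 4.45e-06), and Fgf8, another vesicle signal, lower by 0.96 ± 0.12 (adjusted p = 3.38e-05).

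Of 8 measured genes of the stromal progenitors that surround the cap, 4 rose and 1 fell in kidney tumors (median change 0.37), 6 rose and none fell in secondary tumors (median 1.17), and 4 rose and none fell in liver tumors (median 0.83), against 21.7%, 29.9% and 21.5% of all genes that rose. Meis1, a homeobox factor of this stroma, rose by 1.95 ± 0.29 in kidney tumors (limma adjusted p = 9.53e-05), by 2.69 ± 0.29 in secondary tumors (adjusted p = 3e-06) and by 1.09 ± 0.29 in liver tumors (adjusted p = 0.00706). Aldh1a2, which makes retinoic acid, rose by 1.80 ± 0.40 in kidney tumors (adjusted p = 0.00203), and Tcf21, a stromal and podocyte factor, fell by 1.08 ± 0.34 (adjusted p = 0.0181). Foxd1, which defines the stromal progenitor, was higher in secondary than in primary kidney tumors by 0.60 ± 0.19 (adjusted p = 0.0262). The fibroblast markers given with Osr1 rose in the secondary tumors as well.

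Of the 30 measured relatives of the 9 genes by sequence family, 12 rose and 4 fell in kidney tumors (median change 0.25), 16 rose and 7 fell in secondary tumors (median 0.33), and 12 rose and 8 fell in liver tumors (median 0.18). Of all genes 21.7%, 29.9% and 21.5% rose and 28.1%, 38.7% and 30.7% fell. Sall4, a relative of Sall1 that belongs to pluripotent cells, rose by 4.11 ± 0.15 in kidney tumors (limma adjusted p = 4.01e-09), by 2.49 ± 0.15 in secondary tumors (adjusted p = 2.56e-08) and by 3.19 ± 0.15 in liver tumors (adjusted p = 2.81e-08). Eya4 rose by 1.60 ± 0.32 in kidney tumors and Eya2 by 1.66 ± 0.16 in secondary tumors. Osr2, the relative of Osr1, fell by 1.35 ± 0.20 in kidney tumors (adjusted p = 0.000117). Pax6, a factor of eye and brain, rose by 1.46 ± 0.25 in kidney tumors and by 1.73 ± 0.25 in liver tumors, and Pax9, a factor of the pharynx and skeleton, by 2.23 ± 0.17 in secondary tumors. The mean of 8 pluripotency markers was 7.97 to 8.83 in secondary kidney tumors and 8.59 to 8.90 in kidney tumors, against 6.73 to 6.84 in normal kidney.

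**Figure D4:**
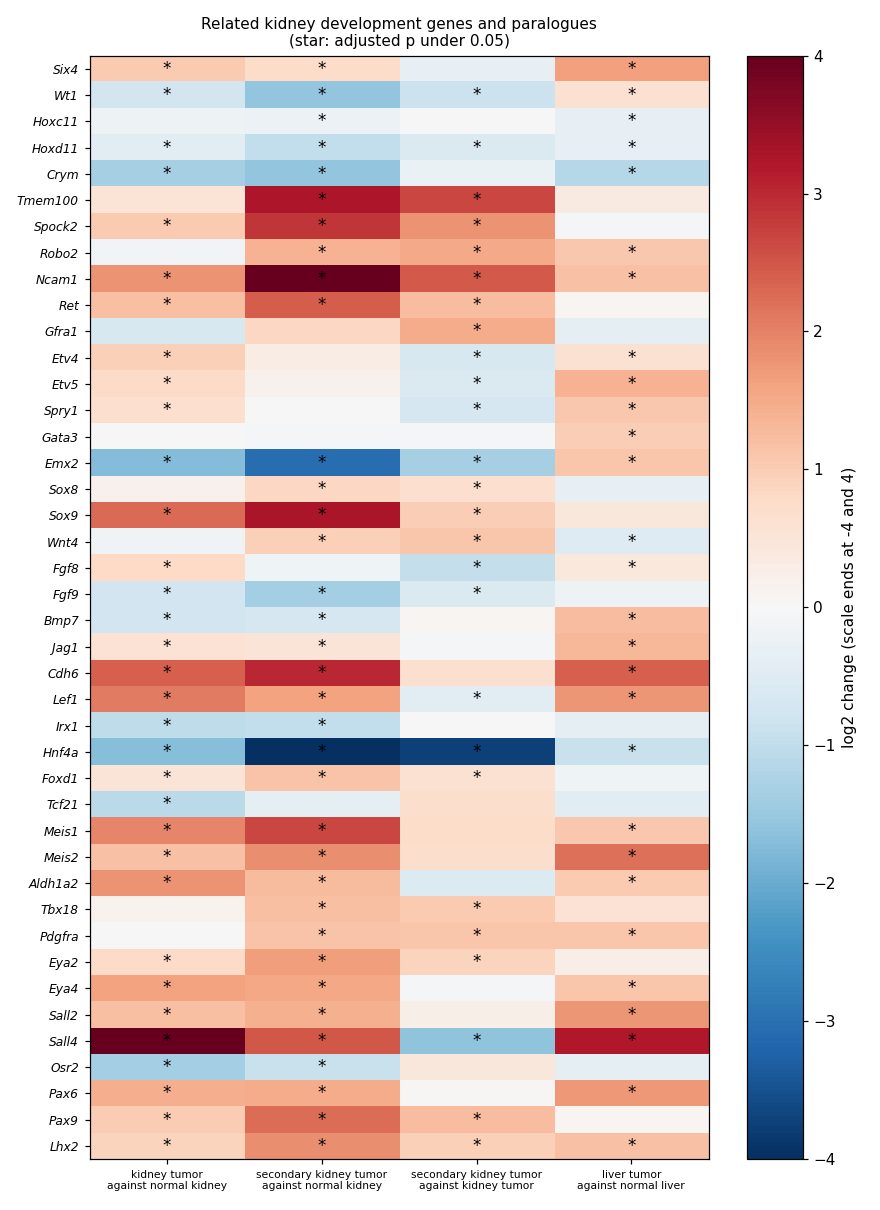
Log2 change of further kidney development genes and relatives of the 9 genes in 4 comparisons, on a colour scale that ends at -4 and 4, with a star where the adjusted p was under 0.05 in limma. Sall4 and Cdh6 are raised in tumors of both organs and in secondary tumors, Hnf4a and Emx2 have their largest falls in secondary tumors against normal kidney, and Ret has a star in the 3 kidney tumor comparisons.

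Genes whose pattern over the 16 arrays was most like each of the 9 were named by Pearson correlation, among genes with an SD of at least 0.5, as a description of points that share tissues and marker content. For Pax8 they were Tspan8 (r = 0.98), Folh1 and Plau, and for Pax2 Galnt14 (r = 0.98), Ptgfr and Ppm1h. For Eya1 they were Sulf1 (r = 0.97), Dpysl5 and Sh3pxd2b, and for Osr1 Ehd2 (r = 0.93), Ddr2 and Timp2. Sall1 ran with Llgl1 (r = 0.95), Trh and Tyro3, Lhx1 with Frzb (r = 0.94), Podxl and Prkch, Cited1 with F2r (r = 0.95), Has2 and Mical1, and Six2 with Brwd3 (r = 0.94), Myocd and Rfx6. Gdnf had no close companion, the highest being Hdc at r = 0.67. Among the 9 genes the closest pairs after Pax2 and Pax8 were Six2 with Cited1 (r = 0.88) and Eya1 with Sall1 (r = 0.88).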

How the data were processed

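Total RNA was labelled for 1-channel Affymetrix arrays, per the labels. The deposited values are linear intensity values, 1 per probe set and array, with array medians of 191 to 226; how the authors corrected, summarised and normalized them is not given in the sources used here. The submitters' processing notes name genome build mm9. Of 28856 probe sets, 21789 had 1 gene symbol, 1621 several and 5446 none in the platform annotation; for the 999 genes with several probe sets the brightest was used. Intensities were taken to log2 without further scaling.

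Groups were compared with limma 3.58.1 (R 4.3.3), with 1 mean per group over all 16 arrays (10 residual degrees of freedom, empirical Bayes without trend). P-values are 2-sided and Benjamini-Hochberg adjusted over 19938 genes, with calls under 0.05 in 7 contrasts. Errors of changes are SEs, and of levels SDs (n = 3). Named related genes were up to 4 of largest change per list and contrast, called and without overlap, plus Ret, Gfra1 and Wt1, and the 3 most correlated genes per member. The 9 genes and all lists were chosen with earlier results of these data known. The number of arrays limits precision, and no 2 arrays were alike. The fit was tested on simulated data. Alternatives are given in the closing section. Deviations of same-numbered arrays from their group means correlated at -0.28 to 0.27 over 18 pairs, 4 over 0.1. The highest, 0.27 and 0.25, were of kidney with liver tumor on arrays 1 and 2, against 0.004 on array 3. Numbers were not taken as pairs, and the labels do not say whether same-numbered kidney and liver tumors share an animal. Sorted cells and methylation data were not analysed here. Promoters are from RefSeq.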

Additional observations from a re-analysis of the deposited data

Results flagged for a closer look

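Pax2 was the gene of the 9 whose tumor effect differed between the organs by the test of the difference itself, with a kidney tumor effect minus liver tumor effect of -1.13 ± 0.24 on the log2 scale (limma interaction, adjusted p = 0.00712). It was lower in 3 of 3 kidney tumors than in any normal kidney, and higher in liver tumors by 0.21 ± 0.17 with overlapping arrays. Normal liver, at 7.58 to 7.72, was near the lowest Pax2 value over all arrays, 7.48, so a fall there may not show. With kidney tumor array 1 as the only kidney tumor the difference was -0.81 (adjusted p = 0.0647). The 11 distal tubule and collecting duct markers had a median of -1.23 in the same difference and the 9 proximal tubule markers -1.24, and their part in it was not tested. Dixon's test for outlying arrays was not run in groups of 3.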

How the results depend on the processing

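Of 1055 changes of the 9 genes recomputed under the alternatives, 979 kept direction and side of the threshold, 22 lost the call, 33 gained it and 21 changed sign, none of them called on both sides. Part of the 979 could not change sign. A fit of the compared groups alone, without the dimmest genes or with an intensity trend leaves each log2 change as it was. Averaging probe sets, or fitting every probe set, used the same values, as each gene had 1. With kidney tumor array 1 as the only kidney tumor, assumed to vary like the other groups, Pax8 against normal kidney was 0.20, Gdnf in secondary against primary tumors 0.013, and Six2 and Gdnf against liver tumors 0.036 and -0.033. Gdnf in secondary tumors against normal kidney was -0.16 on centring and -0.0043 without secondary tumor replicate 1. Osr1 in liver tumors against normal liver was 0.50 without normal liver replicate 1, 0.22, -0.37 and 0.13 without liver tumor replicates 1, 2 and 3, and 0.58 against normal liver replicate 3 alone, a setting chosen after seeing the data. Between kidney and liver tumors, Cited1 was -0.015 on quantile normalization, -0.22 without liver tumor replicate 1 and 0.27 without liver tumor replicate 2, Six2 was 0.069 with array quality weights, 0.01 without kidney tumor replicate 3 and 0.18 without liver tumor replicate 2, and Osr1 was 0.19 with weights, 0.042 without kidney tumor replicate 1, -0.36 without liver tumor replicate 1 and 0.23 without liver tumor replicate 2. Between normal kidney and normal liver, Eya1 was 0.17 without normal liver replicate 1, -0.44 without normal liver replicate 3 and 0.24 against replicate 3 alone, and Sall1 was -0.046 against replicate 3 alone. The causes were not tested.

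The 1 gene called in the difference between organs became 2 on centring, 2 without the dimmest genes, 2 with an intensity trend, 3 with weights and 0 with kidney tumor array 1 alone, and 1 to 3 when leaving out 1 replicate. The 4 called between kidney and liver tumors became 1 in a fit of those groups alone and 2 with kidney tumor array 1 alone. Over all genes, calls in kidney tumors against normal kidney numbered 9922 and 5715 with kidney tumor array 1 alone. In liver tumors they numbered 10419, and 6249 against normal liver replicate 3 alone. In the difference between organs they numbered 3350, and 5068 with weights, 1692 with kidney tumor array 1 alone and 2168 against normal liver replicate 3 alone. Between kidney and liver tumors they numbered 2584, and 948 in a fit of those groups alone and 4278 with weights. A replicate block, though the numbers were not taken as pairs, left the members called at 6, 6, 4, 5, 1, 4 and 3 over the 7 contrasts, as without it.

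Centring moved the median change of all genes from -0.11 to -0.24 in kidney tumors, from -0.12 to -0.35 in secondary tumors against normal kidney, from -0.07 to -0.16 in secondary against primary tumors and from -0.13 to -0.33 in liver tumors. The share of calls that were higher moved from 43.6% to 30.8%, 43.6% to 29.8%, 51.5% to 38.9% and 41.2% to 23.2% in that order. The members that rose and fell became 5 and 3, 3 and 3, 1 and 4, and 4 and 1. The shares of all genes that rose and fell were then 18.1% and 40.7%, 23% and 54%, 15.7% and 24.7%, and 15.8% and 52.1%. With no detection call, the dim values of Gdnf bound nothing.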
